A study of Caenorhabditis elegans with 2 samples.

Results

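Sites between genes that were bound by M03D4.4, a C2H2 zinc finger protein of the nematode Caenorhabditis elegans, were examined as a set of 230 peaks out of 1423 nuclear peaks in all (16.2%, exact Clopper-Pearson 95% interval 14.3 to 18.2%). A peak entered the set where its summit lay outside every protein-coding gene body, outside the stretch from 1000 bp upstream to 500 bp downstream of every protein-coding 5' end, more than 500 bp downstream of every protein-coding 3' end and more than 500 bp from every tRNA gene. The peaks came from the authors' list of reproducible peaks, which set the lowest signal, and the position rule set the absence of tRNA genes, so neither is a result. Sequence and nearby noncoding genes of other kinds were not used. The other nuclear peaks were 656 promoter peaks, 271 gene body peaks and 40 peaks just downstream of genes, all away from tRNA genes, and 226 peaks within 500 bp of a tRNA gene. Of the 230 intergenic summits, 42 lay inside an annotated ncRNA gene, 3 inside a long intergenic ncRNA (lincRNA) gene and 2 inside a pseudogene, so the set is intergenic with respect to protein-coding genes and not to every annotated gene.

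Chromatin was immunoprecipitated with an anti-GFP antibody from strain OP696, which carries unc-119(tm4063) on chromosome III and the transgene wgIs696, from which M03D4.4 is made with a C-terminal GFP-FLAG tag. The material was whole mixed-stage embryos of pooled sex, 2 h after synchronization by egg bleaching, in 2 biological replicates that form the single group of the study. All cell types of the embryo were therefore pooled, and no condition, genotype or untagged strain was compared. The labels used here do not name the sequence that drives the transgene. The authors had filtered the peaks by the irreproducible discovery rate (IDR), which scores how similarly the replicates rank each peak, and coordinates are 1-based on the ce11 build. Read counts were not among the files used, so the depth of each replicate is unknown.

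Peaks between genes are a minority in this compact genome, where most regulatory sequence lies next to the gene it serves. Distal sites in worms can be enhancers, promoters of unannotated or noncoding transcripts, or places whose chromatin is recovered in many immunoprecipitations. C2H2 zinc finger proteins bind DNA through arrays of fingers that each read a few bases, and small RNA genes such as tRNA genes and some snoRNA genes of worms can be transcribed by RNA polymerase III from short internal boxes.

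The sequences below are examples of words, small RNA sites and repeats found among the intergenic peaks, and some lines hold no searched word. The first set shows the word AGACGCAG in capitals, turned so that the word reads the same way in each line, at 7 peaks named by the gene with the nearest 5' end. The word was chosen after the peaks had been seen. It is shown because the base before it was G at 14 of the 15 peaks outside the chromosome whose sequence is not printed here, and the base after it was A at 10 of the 15, while the other flanking bases in the lines below vary.
egl-9, chrV:10466728-10466767, minus strand: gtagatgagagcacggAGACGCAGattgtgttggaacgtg
dct-1, chrX:7951671-7951710, minus strand: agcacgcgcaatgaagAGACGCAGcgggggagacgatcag
R05C11.4, chrIV:2049085-2049124, plus strand: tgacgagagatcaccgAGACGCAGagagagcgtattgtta
Y17G7B.17, chrII:12102546-12102585, plus strand: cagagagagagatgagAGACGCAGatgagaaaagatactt
T19C3.4, chrIII:623934-623973, plus strand: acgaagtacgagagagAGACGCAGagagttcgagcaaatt
rga-9, chrII:15263220-15263259, plus strand: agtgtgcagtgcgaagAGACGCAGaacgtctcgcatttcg
eps-8, chrIV:14872445-14872484, minus strand: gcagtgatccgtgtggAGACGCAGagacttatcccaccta

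The second set covers 75 bp either side of the summits of 3 of the strongest intergenic peaks, at small RNA genes. Capitals mark any searched word and, in the line of H09I01.2, a match with 1 mismatch to GGTTCGANNCC, a longer form of the tRNA B box (N is any base).
cel-mir-52, chrIV:14033964-14034114, plus strand: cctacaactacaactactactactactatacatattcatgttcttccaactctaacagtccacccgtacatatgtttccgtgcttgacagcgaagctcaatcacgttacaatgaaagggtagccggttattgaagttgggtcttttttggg
snoRNA gene H09I01.2, chrIV:8252982-8253132, plus strand: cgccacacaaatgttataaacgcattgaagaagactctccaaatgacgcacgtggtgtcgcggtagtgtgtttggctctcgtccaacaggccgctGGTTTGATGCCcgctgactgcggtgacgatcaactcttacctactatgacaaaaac
snoRNA gene ZK643.9, chrIII:8937644-8937794, plus strand: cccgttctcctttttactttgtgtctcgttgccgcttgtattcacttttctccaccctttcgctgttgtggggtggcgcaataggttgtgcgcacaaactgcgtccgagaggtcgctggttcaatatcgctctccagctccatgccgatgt

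The third set shows the repeats, again 75 bp either side of the summit, at peaks with no gene other than piRNA genes within 500 bp of the summit. Capitals mark, on either strand, the word GAGAGA, tracts of GT, of GA or of C, and 5 words of 7 bases with the greatest excess at intergenic summits, spelled out with their shares among the word counts. The first and second lines hold variants of the same tandem unit on opposite strands, and the next pair of lines holds simple tracts. The last line, which holds none of these, is shown for contrast and is not typical of the set. Its G and C content within 50 bp of the summit was 25.7%, against a median of 51.5% in the set. Its central 50 bases occurred 3 times in the genome.
peak between pef-1 and fbxa-55, chrIII:931571-931721, plus strand: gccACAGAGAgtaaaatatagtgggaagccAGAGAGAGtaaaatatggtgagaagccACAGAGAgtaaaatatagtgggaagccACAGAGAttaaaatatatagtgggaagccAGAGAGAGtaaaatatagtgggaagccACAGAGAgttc
peak between Y64H9A.2 and C24H10.4, chrX:5056342-5056492, plus strand: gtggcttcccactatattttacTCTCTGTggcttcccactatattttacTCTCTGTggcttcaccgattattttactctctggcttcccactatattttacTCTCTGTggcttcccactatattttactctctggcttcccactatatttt
peak between rho-1 and zip-7, chrIV:16491703-16491853, plus strand: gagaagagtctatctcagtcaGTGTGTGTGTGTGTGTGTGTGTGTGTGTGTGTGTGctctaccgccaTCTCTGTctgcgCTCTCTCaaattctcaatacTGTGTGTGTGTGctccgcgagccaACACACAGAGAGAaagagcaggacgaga
peak between T04C4.3 and fnip-2, chrIV:2219404-2219554, plus strand: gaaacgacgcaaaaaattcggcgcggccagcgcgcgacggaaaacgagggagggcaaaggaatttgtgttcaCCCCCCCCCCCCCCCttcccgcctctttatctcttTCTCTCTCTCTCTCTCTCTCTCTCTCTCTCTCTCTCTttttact
peak between nhr-204 and lgc-26, chrV:265424-265574, plus strand: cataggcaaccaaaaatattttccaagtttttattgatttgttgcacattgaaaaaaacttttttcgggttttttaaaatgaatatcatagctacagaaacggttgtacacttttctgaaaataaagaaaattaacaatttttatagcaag

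The intergenic peaks were mostly weak members of the list, with a few strong ones. Their signal, the authors' own value for each peak in an unstated scale, ranged from 147 to 1090.5 with a median of 185.1 (quartiles 161.5 and 229.1). The median was 205.9 in promoter peaks, 183.5 in gene body peaks and 312.6 in peaks near tRNA genes. The ratio of the intergenic to the promoter median was 0.899. Of the 100 strongest nuclear peaks 6 were intergenic, and of the 711 strongest 77 were. The intergenic intervals had the same width as most of the list, 430 bp in 209 of 230.

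The signals of the replicates are given as a description, since the list was chosen by how the replicates ranked its peaks and holds the strongest peaks of the pool. A peak was matched in a replicate's own longer list where the overlap covered at least 50% of either interval, and 228 of the 230 were matched in both replicates. Over the matched peaks the median signal was 100.2 in replicate 1 and 90.96 in replicate 2, and the log2 ratio of replicate 2 to replicate 1 had a median of -0.20 with an SD of 0.49 over peaks. Over all nuclear peaks the log2 ratio had a median of -0.19 and an SD of 0.46. When each replicate's own list was trimmed to its 1423 strongest nuclear entries, 142 of the 230 intergenic peaks were found in both (61.7%, 55.1 to 68.0%), beside 70.2% of all nuclear peaks, 69.7% of promoter peaks (66.0 to 73.2%) and 64.2% of gene body peaks. The 142 had a median signal of 214.9, and the 88 others had 157.8, with none above 208.7. The intergenic share lay below that of promoter peaks, with overlapping intervals, and these intervals cover counting error only.

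The strongest intergenic peaks stood at small RNA genes. The first was at cel-mir-52, a member of the mir-51 family of embryonic microRNAs, with its summit inside the microRNA gene at position 14034039 of chromosome IV. Its pooled signal was 1090.5, with 689.3 in replicate 1 and 417.6 in replicate 2. A second summit in the same deposited interval, 136 bp from the microRNA gene, had 261.0 pooled, 278.4 in replicate 1 and 96.8 in replicate 2. These summits share an interval, so the set holds 229 distinct intervals.

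The next 4 peaks each lay 37 to 50 bp from a snoRNA gene, which makes a guide RNA for the modification of other RNAs. The peak at H09I01.2 on chromosome IV had a signal of 953.8, with 527.7 in replicate 1 and 427.4 in replicate 2. The peak at ZK643.9 on chromosome III had 857.2, with 439.3 and 414.6. The peaks at Y23H5B.10 and T19B4.8, both on chromosome I, had 732.4, with 392.4 and 338.7, and 718.3, with 376.5 and 342.5. All 4 were rich in G and C within 50 bp of the summit, at 53.5 to 59.4%, against 25.7 to 33.7% in their flanks 200 to 300 bp away. At the summit inside cel-mir-52 the order was turned, with 44.55% against 55.45% in the flanks. The tenth strongest peak lay inside sls-2.2, which makes a spliced leader RNA of the SL2 type, with 447.8 pooled, 249.9 in replicate 1 and 197.1 in replicate 2. Its G and C content was 37.6% at the summit and 38.1% in the flanks.

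In all, 16 of the 230 intergenic peaks had a snoRNA, snRNA, microRNA or rRNA gene within 500 bp (6.96%, 4.03 to 11.0%). Bases open to the set, that is all bases that meet the position rule, had such a gene within 500 bp in 0.961% of cases. The share was 6.40% in promoter peaks, 16.6% in gene body peaks, 30% in the 40 peaks just downstream of genes and 8.15% in all nuclear peaks (6.78 to 9.70%), so the intergenic share was close to that of the whole list. It was 1.27% in the 4960 weaker intergenic peaks of the pooled relaxed list that did not pass the IDR threshold (0.977 to 1.62%). The 16 comprised 8 at snoRNA genes with a median signal of 488.4, 7 at microRNA genes with 204.8, and the 1 at the spliced leader gene. The microRNA genes were cel-mir-52 with its 2 summits, cel-mir-80, cel-mir-1, cel-mir-53, cel-mir-73 and cel-mir-8196a. The peak at cel-mir-80 had a signal of 241.6, with 121.2 in replicate 1 and 119.2 in replicate 2. The peak 426 bp from cel-mir-1, the muscle microRNA, had 204.8, with 55.88 in replicate 1 and 131.4 in replicate 2, so the replicates differed widely there. The peak at cel-mir-53, another member of the mir-51 family, had 166.0, with 104.8 and 56.84. The 4 weaker snoRNA peaks had signals of 258.5, 250.3, 171.8 and 152.4.

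Without the 16 the median signal of the set was 184.6 and its highest value was 707.2. That highest peak, on chromosome I between prhg-1 and nas-30, an astacin-like protease gene, lay 4966 bp from the nearest gene and had 463.4 in replicate 1 and 428.2 in replicate 2. The peak between pef-1 and fbxa-55, whose tandem unit is printed above, had 569.3, with 336.4 and 290.2. The peak between nhr-204 and lgc-26 had 502.4, with 271.7 and 235.2. The peak upstream of gpb-1, the G protein beta subunit gene, had 410.6, with 180.5 and 227.9, and the peak inside linc-128, 4757 bp upstream of the calmodulin gene cmd-1, had 382.6, with 185.2 and 201.2. The peak inside linc-91, 2875 bp upstream of chd-7, a chromodomain helicase gene, had 352.6, with 212.6 and 144.3. The peak between W04G3.11 and W02H3.3 on X had 373.4, with 211.2 and 158.9, and the peak upstream of sup-26, which encodes an RNA-binding protein, had 360.3, with 207.7 in replicate 1 and 0.554 times that value in replicate 2. The peak between F20B6.9 and hpk-1, a kinase gene, had 351.5, with 184.5 and 168.9.

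Among the repeats printed above, the peak between Y64H9A.2 and C24H10.4 had 330.6, with 196.9 in replicate 1 and 173.1 in replicate 2. The peak between T04C4.3 and fnip-2 had 323.8, with 190.5 and 131.5, and the peak between rho-1, the RhoA gene, and zip-7 had 320.7, with 159.9 and 165.3. In total 135 intergenic peaks (58.7%) had no gene of any class other than piRNA within 500 bp, and their median signal was 190.0.

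Other noncoding genes lay near intergenic peaks at shares whose intervals include those of the whole list, which also holds the peaks near tRNA genes. For the broad ncRNA class the intergenic interval lay above the shares of promoter peaks (interval 17.8 to 24.2%) and gene body peaks (21.1 to 31.9%), and overlapped only the interval of the latter. Genes of the broad ncRNA class lay within 500 bp of 81 intergenic peaks (35.2%, 29.1 to 41.8%), against 31.1% of all nuclear peaks (28.7 to 33.6%), 20.9% of promoter peaks, 26.2% of gene body peaks and 63.3% of peaks near tRNA genes. The share was 9.58% in the bases open to the set and 16.5% in the weaker intergenic peaks. Those 81 had a median signal of 178.6, and the other peaks had 191.1. A lincRNA gene lay within 500 bp of 5 peaks (2.17%, against 0.773% of all nuclear peaks and 1.28% of bases). Pseudogenes were near 4 peaks (1.74%, 0.476 to 4.39%), against 1.41% of all nuclear peaks and 15.7% of bases. Genes for piRNAs were near 6 peaks (2.61%, 0.963 to 5.59%), against 2.04% of all nuclear peaks and 8.78% of bases. The strongest peak at a pseudogene, with a signal of 326.3, lay inside the gene listed as WBGene00020829 on the X chromosome and had 160.0 in replicate 1 and 165.4 in replicate 2.

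Measured per length of sequence open to the set, intergenic peaks were denser on X. The 21.45 Mb that met the position rule (21.4% of the genome) held 10.7 peaks per Mb. The other peaks away from tRNA genes had 12.3 per Mb over the remaining sequence, which includes the bases near tRNA genes. X held 74 intergenic peaks (32.2%) at 14.9 per Mb, against 9.47 per Mb on the autosomes, a ratio of 1.57. The same ratio was 1.20 for the other peaks away from tRNA genes, and 19.03% of the weaker intergenic peaks were on X. Chromosome I came above X with 16.03 per Mb, chromosome III had 13.3, chromosome II 8.97, chromosome IV 7.28 and chromosome V 6.31, so the X value lay within the range of the single autosomes. On X the median signal was 192.5, and on the autosomes it was 184.8. The density was 10.03 per Mb in the central 50% of the autosomes, against 8.99 nearer their ends, and on X it was 13.9 in the central 50%, against 15.6 nearer the ends.

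**Figure D1:**
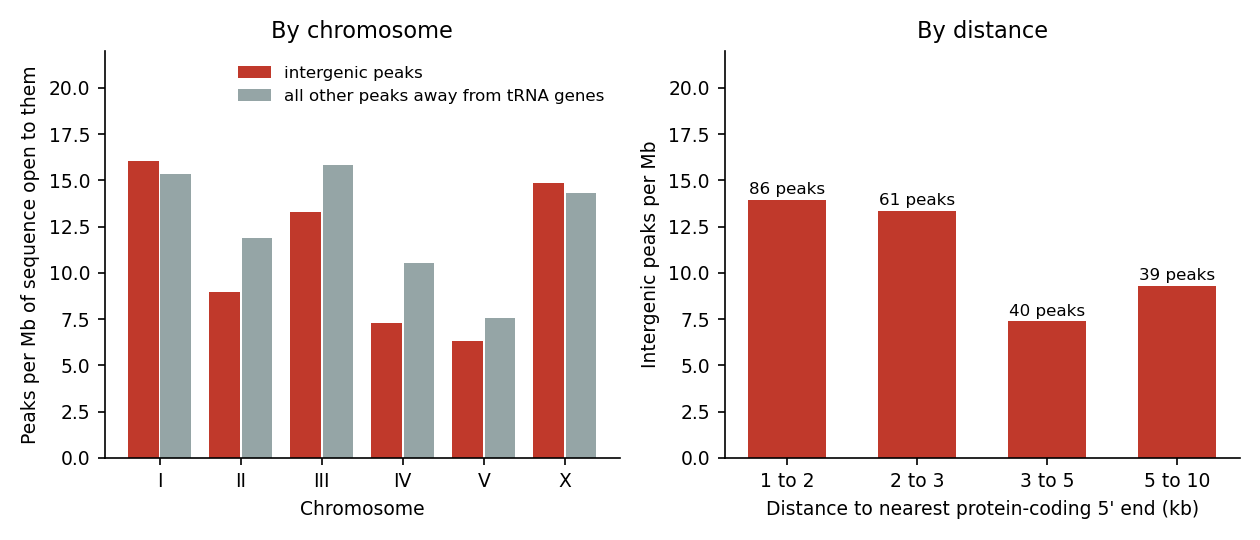
Intergenic peaks per Mb of sequence that meets the position rule (red) by chromosome, beside the other peaks away from tRNA genes per Mb of the remaining sequence (grey), and intergenic peaks per Mb by distance in kb to the nearest protein-coding 5' end. Chromosomes I, III and X are high and V is low, and the density falls from 13.9 per Mb at 1 to 2 kb to 7.37 at 3 to 5 kb and is 9.29 at 5 to 10 kb.

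The intergenic peaks lay upstream of genes more often than the bases open to them. The nearest protein-coding 5' end was at a median of 2485 bp (quartiles 1488 and 4208 bp, range 835 to 16227 bp), against 2981 bp for the bases. The density was 13.9 per Mb at 1 to 2 kb from a 5' end, 13.3 at 2 to 3 kb, 7.37 at 3 to 5 kb and 9.29 at 5 to 10 kb, and 3 peaks lay farther out. Of the 230 summits, 186 lay upstream of their nearest 5' end (80.9%, 75.2 to 85.7%), against 73.1% of the bases. Gaps between divergent genes held 95 summits (41.3%, 34.9 to 48.0%, against 34.6% of bases, and 32.7% of summits with a promoter limit of 2000 bp, for which the bases were not recomputed), gaps between genes in tandem held 120 (52.2%, against 52.9%), and gaps between convergent genes held 15 (6.52%, 3.70 to 10.5%, against 12.1%). The 15 in convergent gaps had a median signal of 241.6 and included the peaks at cel-mir-52 and H09I01.2. The summits fell into 203 distinct gaps, with a median gap length of 7755 bp, against 8465 bp for the bases.

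Summits lay close to the promoter and 3' end limits of the rule, but not to its tRNA limit. The intergenic summit nearest to a tRNA gene was 934 bp away with a signal of 149.4, and the farthest one left out was 192 bp away with 188.4. The intergenic summit closest to the promoter limit was 1004 bp upstream with 235.1, and the farthest promoter summit was 1000 bp upstream with 295.9. At 3' ends the nearest intergenic summit was 506 bp downstream with 170.3, and the farthest one left out was 483 bp downstream with 162.8. Between 1000 and 1500 bp upstream of a 5' end lay 54 intergenic summits, and up to 2000 bp lay 80. The 5 summits farthest from any 5' end were at the snoRNA gene Y23H5B.10 (16227 bp), at cel-mir-80 (11554 bp), near cel-mir-52 (10909 bp), between F11A6.16 and kpc-1 (9960 bp) and at cel-mir-52 (9741 bp).

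Intergenic summits were rich in G and C, and the rich stretch was wide. Within 50 bp of the summit the median G and C content was 51.5% (quartiles 46.5 and 55.5%), against 37.1% in the flanks 200 to 300 bp away and 33.7% in windows of 101 bp of the sequence open to the set. The summit was richer than its flanks in 208 peaks and poorer in 20, with a median difference of 13.9 percentage points. Windows at or above 51.5% made up 3.33% of the open sequence. The medians at the summit were 50.5% in promoter peaks and 50.5% in gene body peaks. The median difference from the flanks was 13.4 points in promoter peaks and 10.4 points in gene body peaks, whose flanks were at 39.6%. At 110 bp before and after the summit, intergenic peaks still averaged 46.2% and 45.9% (standard errors over peaks 0.914 and 0.957), and promoter peaks averaged 37.5% and 36.8% (0.633 and 0.656). Gene body peaks, at 45.3% and 44%, resembled the intergenic ones. Peaks of a library are not replicates, so these standard errors describe the spread over peaks alone. The part of G and C content in how chromatin is recovered and sequenced was not tested.

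**Figure D2:**
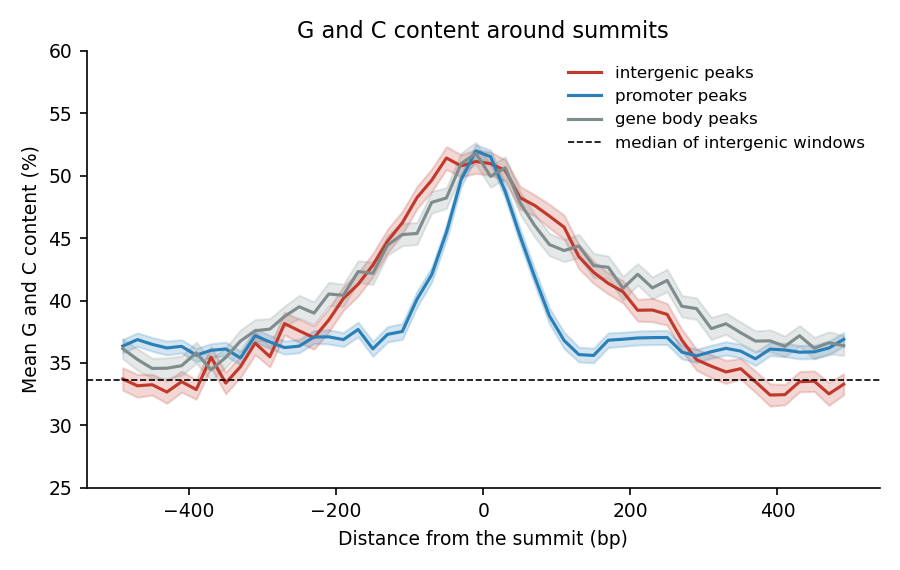
Mean G and C content (y axis, percent) in bins of 20 bp by distance from the summit (x axis, bp) for intergenic, promoter and gene body peaks. Bands are standard errors over peaks and the dashed line is the median of 101 bp windows of open intergenic sequence, 33.7%. The intergenic and gene body curves are wide, and the promoter curve has returned to its flank level by 110 bp.

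The word GAGAGA, read on either strand, lay within 50 bp of 74 intergenic summits (32.2%, 26.2 to 38.6%). It was found at 19.5% of promoter summits (16.6 to 22.8%), 24.7% of gene body summits (19.7 to 30.3%), 12.4% of summits near tRNA genes and 21.4% of all nuclear summits. Windows of 101 bp of the open sequence held it in 5.50% of cases. Here and for the words and tracts below, the windows were not matched to the summits for base content. Their median G and C content was 33.7%, against 51.5% at the summits. The 74 peaks with the word had a median signal of 186.3, and the 156 without it had 185.1. The share differed between chromosomes, at 14 of 74 on X (18.9%, 10.8 to 29.7%) and 60 of 156 on the autosomes (38.5%, 30.8 to 46.6%). On chromosome IV it was 53.1%, and on the other autosomes it lay between 29.6 and 44.4%. In promoter peaks the order was turned, with 25% on X and 18.2% on the autosomes, and their intervals overlapped. The open windows held the word in 4.67% of cases on X and 5.75% on the autosomes. Of words of 7 bases, those with the greatest excess at intergenic summits over their flanks were CTCTCTC (20.4% of peaks, against 4.78% of flanks), AGAGAGA (20.9%, against 6.52%), ACACACA (16.1%, against 4.13%), CACACAC (14.8%, against 3.91%) and ACAGAGA (12.2%, against 2.39%), each counted with its complement. These 5 words overlap in sequence, and at least 1 of them was at 102 summits (44.3%). They were picked for this excess at the same summits, so the shares are a description. In gene body peaks ACACACA was at 16.97% and CACACAC at 16.6% of summits, both above the intergenic shares.

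The word AGACGCAG lay within 50 bp of 20 intergenic summits (8.70%, 5.39 to 13.1%), against 5.79% of promoter summits, 5.54% of gene body summits, 0.885% of summits near tRNA genes and 0.577% of open windows. The intervals of promoter summits (4.13 to 7.87%) and gene body summits (3.131 to 8.965%) overlapped the intergenic one. In the weaker intergenic peaks outside the IDR list it was found at 2.40% (1.99 to 2.86%). When those were split by signal into 5 groups of 992, it was at 1.41% of the weakest group and 5.24% of the strongest. Of the 20 summits, 19 lay upstream of their nearest 5' end, 11 had no gene other than piRNA within 500 bp, and 9 also held GAGAGA. In all 230 intergenic peaks these shares were 80.9%, 58.7% and 32.2%, so on 20 peaks the counts are not read as traits of the word. The signals of the 20 were moderate, with a median of 186.1 and a maximum of 276.8. The strongest was 1807 bp upstream of egl-9, the prolyl hydroxylase gene of the hypoxia pathway, and others lay 2637 bp upstream of dct-1, a mitophagy receptor gene, 8191 bp upstream of die-1, a zinc finger transcription factor gene, 1434 bp upstream of pdk-1, a kinase gene of insulin signalling, and 7035 bp upstream of eps-8, an actin regulator gene. In the printed lines the word is on the strand of the nearest gene at R05C11.4 and rga-9 and on the opposite strand in the other 5.

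Simple tracts were a further feature of the set, and their search was added after the peaks had been seen. A tract of at least 6 GT units lay within 50 bp of 14 intergenic summits (6.09%), a tract of at least 6 GA units at 15 (6.52%) and a run of at least 8 C at 18 (7.83%), each counted on either strand. At least 1 of these was at 46 summits (20%, 15.03 to 25.8%), against 5.95% of promoter summits (4.26 to 8.04%), 17.3% of gene body summits (13.0 to 22.4%), 4.90% of the weaker intergenic peaks and 0.807% of open windows. The strongest of the 46 had a signal of 323.8 and is the one with both a C run and a GA tract printed above. A run of at least 8 A was at 4 intergenic summits (1.74%), against 13.5% of open windows. A GA tract also contains GAGAGA, and 22 of the 46 held that word.

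**Figure D3:**
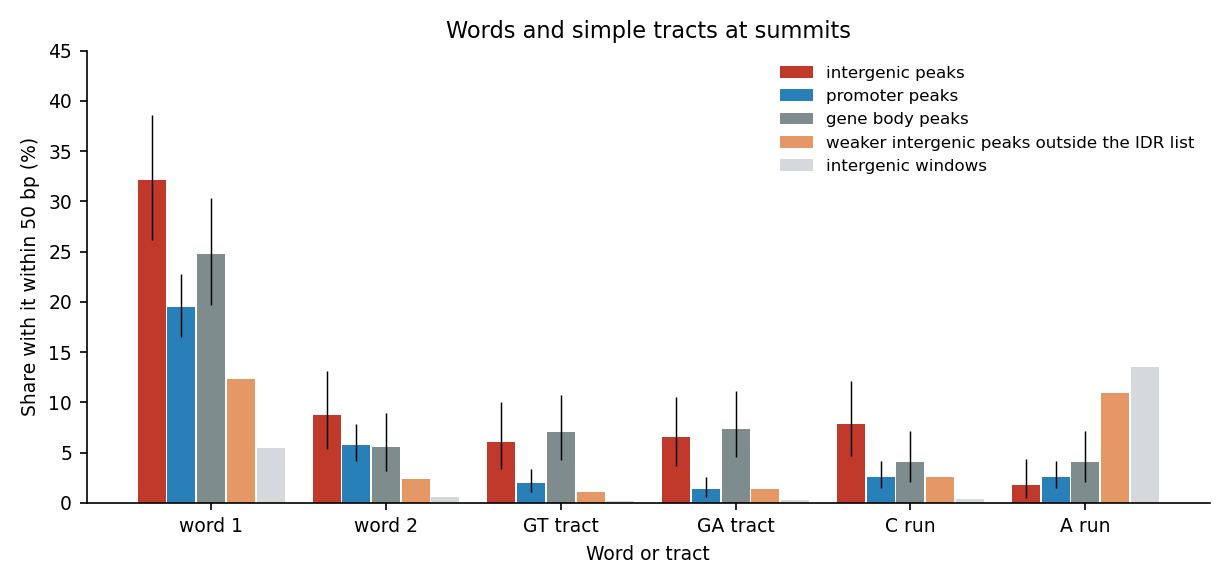
Share of peaks (y axis, percent) with a word or tract within 50 bp of the summit, read on either strand, where word 1 is GAGAGA and word 2 is AGACGCAG. Black lines are exact 95% intervals for counting error. The palest bars are 101 bp windows of open intergenic sequence, not matched for G and C content. Intergenic peaks reach 32.2% for word 1 and fall below the windows only for A runs, 1.74% against 13.5%.

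The tRNA-like B box, GTTCGANNC on either strand, marked few intergenic peaks, and the rule leaves out summits near tRNA genes, which carry this box. It lay within 150 bp of 4 intergenic summits (1.74%, 0.476 to 4.39%), against 3.20% of promoter summits, 5.17% of gene body summits and 2.15% of open windows of 301 bp. With 1 more fixed base at each end and 1 mismatch allowed, a search added after the peaks had been seen, it was found at 3 of the 8 intergenic summits near snoRNA genes (37.5%, 8.52 to 75.5%), H09I01.2 and Y23H5B.10 among them, and at 10 of the other 222 (4.50%, 2.18 to 8.13%). That form was in 2.46% of open windows. For scale, the box was at 69.9% and its longer form at 85.0% of summits near tRNA genes, a contrast that the rule itself sets.

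Few intergenic peaks lay in sequence with many copies. The central 50 bases of the summit occurred once in the genome in 228 of 230 peaks (99.1%, 96.9 to 99.9%). The exceptions were the peak between nhr-204 and lgc-26, with 3 copies, and a peak 2879 bp from T28H10.2 on chromosome V, with 69 copies and a signal of 277.5, with 108.1 in replicate 1 and 178.5 in replicate 2. Words of 20 bases within 50 bp of the summit had a median of 10 or more copies in 5 intergenic peaks (2.17%, 0.710 to 5.00%), against 8.31% of open windows and 35.0% of summits near tRNA genes. The peaks between prhg-1 and nas-30, between pef-1 and fbxa-55, and between Y64H9A.2 and C24H10.4 shared between 23 and 30 words of 20 bases with each other, pair by pair, within 75 bp of their summits. Their signals were 707.2, 569.3 and 330.6, and no other pair of intergenic peaks more than 150 bp apart shared more than 5, leaving out tracts with a unit of 1 or 2 bases. The part of read placement in repeated sequence in these values was not tested.

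Intergenic peaks sometimes came in runs. Where neighbouring summits within 5000 bp were joined, 43 peaks formed 19 runs, 4 of them with at least 3 peaks. Runs were not counted in the other peaks or in the open sequence, so these counts are a description only. The shortest runs spanned 200 and 205 bp. The longest run held 4 peaks over 8931 bp of X, between F13D11.3 and hbl-1, the hunchback-like gene that controls developmental timing. Their signals were 451.2, 277.1, 209.3 and 194.3 in order along the chromosome, and the last lay 1053 bp upstream of the hbl-1 5' end. The nearest 5' end to the first and second was that of F13D11.3, at 6236 and 6446 bp. The deposited intervals of the first and second peak overlapped. All but the last summit lay inside annotated ncRNA genes, F13D11.22, F13D11.7 and F13D11.18. In replicate 1 the 4 peaks had 262.6, 184.6, 119.6 and 95.83, and in replicate 2 they had 194.8, 107.3, 90.16 and 99.11. The run at cel-mir-52 held 3 summits over 1372 bp, with 171.2, 1090.5 and 261.0.

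By nearest protein-coding 5' end the intergenic peaks fell to 210 genes, 1.05% of the 19973 protein-coding genes. Of 10 gene lists, 16 genes were nearest to an intergenic peak. Wnt signalling had 3 of 27 genes (11.1%, 2.35 to 29.2%), with pop-1, the TCF transcription factor gene, at 183.6, dsh-1, a Dishevelled gene, at 165.0 and wrm-1, a beta-catenin gene, at 158.1. The 3 genes stand on small counts with a wide interval. An upstream gap over 2 kb was present in 18 of the 27, against 7234 of all 19973 protein-coding genes. Among genes with such a gap, 16.7% of this list and 2.57% of all protein-coding genes were nearest to an intergenic peak. By that measure axon guidance had 4.17%, nuclear receptors 3.94%, the bHLH, T-box, GATA, forkhead and Sox list 3.57% and collagens 3.08%. Homeobox genes had 1.56% and neuropeptides 1.02%, both below the share of all genes. Chemoreceptors had 0% of 410 such genes, twk potassium channels 0% of 26 and cytosolic ribosomal proteins 0% of 8. Nuclear receptors had 5 of 274 genes (1.82%), led by nhr-88 with a signal of 229.1. The list of bHLH, T-box, GATA, forkhead and Sox genes had 2 of 88, hlh-2, an E protein gene, at 192.1 and egl-18, a GATA factor gene, at 158.9. Axon guidance had 2 of 57, unc-44, the ankyrin gene, at 191.2 and sax-3, the Robo receptor gene, with peaks at 157.6 and 148.1. Homeobox genes had 1 of 99, unc-62, a Meis-type gene, 5849 bp from its summit. Collagens had 2 of 179, let-2, a type IV collagen gene, and col-105, at 155.2 and 154.8. Neuropeptides had 1 of 146, ins-13, whose peak is the one inside sls-2.2. Chemoreceptors had 0 of 1310 (upper limit 0.281%), cytosolic ribosomal proteins 0 of 80 and twk potassium channels 0 of 47. The upstream gap of the ribosomal protein genes had a median of 570 bp and was over 2 kb in 8 of the 80, so few could hold an intergenic peak. In promoter peaks that list had 17 of 80 genes (21.2%), against 3.18% of all protein-coding genes.

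The list of peaks that passed the IDR threshold was the 1423 strongest nuclear peaks of the pooled relaxed list. Of 29980 nuclear relaxed peaks, 4.75% passed. In the intergenic class 230 of 5190 passed (4.43%), in promoter peaks 7.63%, in gene body peaks 1.84% and near tRNA genes 48.3%. Base content and the share with GAGAGA climbed with strength among the weaker peaks, and the share was equal in the weaker and stronger IDR peaks. When the 4960 weaker intergenic peaks were split by signal into 5 groups of 992, the median G and C content at the summit was 38.6, 39.6, 40.6, 41.6 and 45.5% from the weakest group to the strongest. It was 50.5% in the weaker 50% of the intergenic IDR peaks and 52.5% in the stronger 50%. GAGAGA was at 7.76% of the weakest group of 992 and 21.5% of the strongest, and at 32.2% of both groups of IDR peaks. The flanks stayed between 35.6 and 36.6% over the groups of 992.

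**Figure D4:**
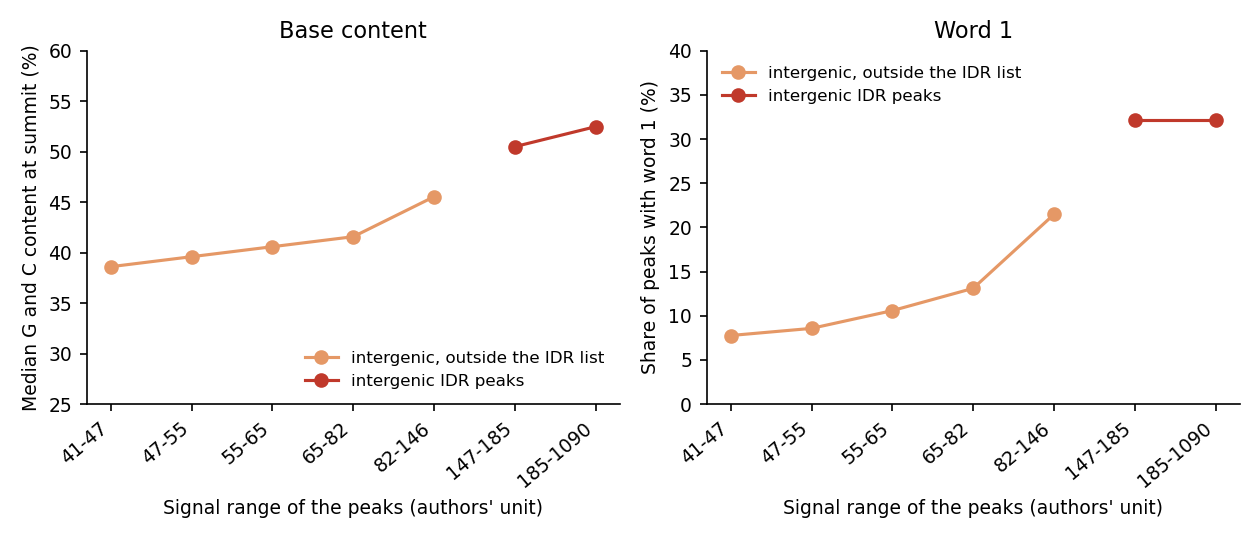
Median G and C content at the summit (left, percent) and share of peaks with GAGAGA, word 1, within 50 bp (right, percent) for intergenic peaks in order of signal, with signal ranges in the authors' unit on the x axis. The 5 orange points are groups of 992 among the weaker peaks and the 2 red points are the weaker and stronger 50% of the IDR peaks. Both measures climb over the orange points, and the word stands at 32.2% in both red ones.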

How the data were processed

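The data are chromatin immunoprecipitation and sequencing peaks of 2 biological replicates that form 1 group, per the labels. The deposited lists hold, per peak, the signal and a −log10 q-value given by the authors and the distance of the summit from the start, on ce11. The authors derived the IDR list from the relaxed lists of each replicate and of the pool, which were called with a control, per the description deposited with the lists, and hold 30000 peaks each. The aligner, the caller, the IDR threshold and the scale of the signal: none of these is given in the sources used here. Only the ce11 lists were used, nuclear peaks were kept, and the q-value only broke ties in rank.

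Summits were compared with gene ends of Ensembl release 115 for WBcel235, which is ce11 under another name. Sequence came from RefSeq on the same assembly. Shares have exact Clopper-Pearson 95% intervals, limited to counting error, since peaks are no replicates. The background was every base that meets the position rule, and its windows of 101 and 301 bp. No test across conditions was possible. The peaks, gene lists and tests were chosen with earlier results of these data known.

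The peaks named in the text are the strongest 20, those with no gene within 500 bp, the farthest from a 5' end, the strongest per noncoding class, up to 4 per gene list, runs and limit cases. The peaks holding AGACGCAG, the printed tract and the 3 peaks sharing words were picked with their values already seen. The classing and word searches were tested on simulated positions and sequence. Alternatives were the 711 strongest peaks, the strongest pooled peaks, each replicate alone, a tRNA distance of 1000 bp, a promoter limit of 2000 bp, exclusion of genes of every biotype except piRNA, and other windows. Tables were made with pandas 2.3.3 and NumPy 2.4.6 under Python 3.11.15, intervals with SciPy 1.17.1, and figures with Matplotlib 3.10.9.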

Additional observations from a re-analysis of the deposited data

How the results depend on the processing

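The 13 results were recomputed under the alternatives, giving 98 values. Of these, 13 come from the strongest pooled peaks, which are the same 230 peaks and so cannot differ. Of the other 85 values, 58 stayed within the spread of the reported one, which is the exact interval for shares, 1.5 times for gene counts and otherwise 1 SD between the replicates' own values. With only the 711 strongest peaks the intergenic share was 10.83%, the share near small RNA genes 12.99%, the median distance to a 5' end 2808 bp, the density 3.59 per Mb, the ratio of X to autosomes 1.889, the G and C difference 12.38 points, the B box share 0%, the share found in both replicates 98.7% and the list genes 3. With a promoter limit of 2000 bp the intergenic share was 10.54%, the ratio of median signals 0.953, the distance 3342.5 bp, the density 9.451 per Mb, the divergent share 32.67%, the G and C difference 12.38 points and the B box share 0%. With genes of every biotype except piRNA excluded the intergenic share was 12.65%, the ratio of signals 0.9115 and the density 9.817 per Mb. A window of 25 bp gave a G and C difference of 12.88 points, a window of 100 bp a GAGAGA share of 57.39%, a match by summits within 100 bp a share found in both replicates of 54.35%, and the longer B box 5.652%. With 1 replicate left out, the ratio of signals was 0.8822 to 0.8983, the distance 2516 to 2617.5 bp and the G and C difference 11.39 to 12.62 points. Some of these shifts are set by the alternatives themselves. A shorter list holds fewer peaks per Mb and fewer list genes, and its strongest peaks are found more often in both replicates. A wider promoter limit leaves out summits close to a 5' end. The cause of the other shifts was not tested. The G and C difference kept its sign in each alternative, and the values of the open bases were not recomputed for shares set against them. No paired analysis was possible because the study has 1 group.

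The signal has no known scale and the depth is unknown, so a missing peak was not read as absent binding. Without an untagged strain or an input profile among the files used, binding by this protein and chromatin recovered with any tagged protein cannot be told apart. The 230 peaks are not independent, since 43 stand in runs.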
